A study of Ovis aries with 3 samples.

Results

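Small RNA of the sheep left ventricle was compared between animals recovering from heart failure (HF-R) and animals in heart failure (HF), to ask which miRNA levels moved once rapid pacing had stopped. The comparison covered the miRNA entries whose mean count over the Cont, HF and HF-R libraries was at least 10. That minimum was met by 366 of the 636 listed entries, and by 356 of 621 once entries listed under several names were taken once. Of these 356 members, 192 had a mean count of at least 100. Each group was 1 pooled library. Cont held RNA of 4 normal Coopworth ewes that were not paced, and HF of 6 ewes after rapid left ventricular pacing. HF-R held RNA of 4 ewes sampled some weeks after pacing had ceased. The study describes surgery through the chest wall to instrument the sheep, with a pacing electrode for HF and HF-R. The labels give the pacing as about 220 beats per minute for 13 days in one field and 225 beats per minute for 14 days in another, and the recovery as 26 days in one field and 14 days in the other. HF and HF-R shared the pacing and differed in the recovery time, and the failure was produced by a fast heart rate, not by loss of muscle. With 1 pool a side there was no replicate check, the spread between ewes is unknown, and no p-values are given. Recovery and the choice of ewes in each pool cannot be told apart. All intervals are 95% intervals of counting error alone, and reads multiplied by PCR are not independent molecules.

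A miRNA is a short RNA that guides an Argonaute protein to messenger RNAs, mostly by pairing of its seed, bases 2 to 8 from the 5′ end, and lowers the output of those messengers. Each is cut from a hairpin whose arms give a 5p and a 3p product, miRNAs with the same seed form a family, and hairpins close together in the genome are often made from 1 transcript. In the heart, miR-1, miR-133 and miR-499 are abundant products of muscle cells, miR-208a and miR-208b lie inside the genes of the cardiac myosin heavy chains, miR-21 and miR-199/214 are prominent in fibroblasts, and miR-29 is known for targeting collagens. The libraries were made from whole tissue, in which fewer cells of a type and less RNA per cell cannot be told apart.

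The sequences below are those of the members on which the results turn, as deposited, 5′ to 3′ with the seed in capitals and thymine for uracil; positions are on the sheep assembly Oar_v4.0. The first 3 were lower in HF-R and the next 3 higher, and miR-3958-3p and miR-493-5p lie in the imprinted DLK1-DIO3 region.
miR-101-3p, chr1:40172021-40172041, minus strand: tACAGTACtgtgataactgaa
miR-320a, chr2:43152961-43152982, plus strand: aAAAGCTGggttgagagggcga
miR-452-5p, chrX:78979264-78979285, plus strand: aACTGTTTgcagaggaaactga
miR-21, chr11:10336505-10336527, plus strand: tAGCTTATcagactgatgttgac
let-7g, chr19:48614062-48614082, plus strand: tGAGGTAGtagtttgtacagt
miR-208a-3p: aTAAGACGagcaaaaagcttgt
miR-3958-3p, chr18:64534859-64534880: aGATATTGcacggttgatctct
miR-493-5p, chr18:64369140-64369161: tTGTACATggtaggctttcatt

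The entries summed to 4711131 counts (Cont), 6154795 (HF) and 5990078 (HF-R), nearly all of them in the members. Levels are given as CPM, counts scaled to an equal library sum, and runs of 3 values are in the order Cont, HF, HF-R. miR-1-3p alone took 24.0% of the HF library and 31.6% of the HF-R library, against 25.6% in Cont, and a gain in so large a share lowers the CPM of every other entry. The median HF-R/HF ratio of the 356 members was 0.817, a log2 difference of -0.29, with 248 members below 1 and 108 above. Multiplying all ratios by 1 factor moves that midpoint. The factor was 1.28 with TMM scaling, which trims extreme entries, 1.22 with DESeq2 size factors and 1.10 when miR-1 was left out of the sums. A member was called lower or higher when its ratio was at least 1.5-fold from 1 and its interval left out 1. By CPM, 83 members were called lower, 23.3% of those compared, and 18 higher, 5.06%. The split moved to 33 lower and 58 higher with TMM, to 41 and 44 with DESeq2 size factors and to 53 and 24 without miR-1. Under all 4 scalings 33 members were lower, 9.27%, and 18 higher, 5.06%. Every factor used raises the ratios, so the 18 higher by CPM keep their call by construction. Scaling to the total of perfect matches in each library was not among the 4. It multiplies every ratio by 0.910, and higher calls near 1.5 are lost under it. The 33 and the 18 carry the account below, in which "fell" and "rose" are used of them alone.

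**Figure D1:**
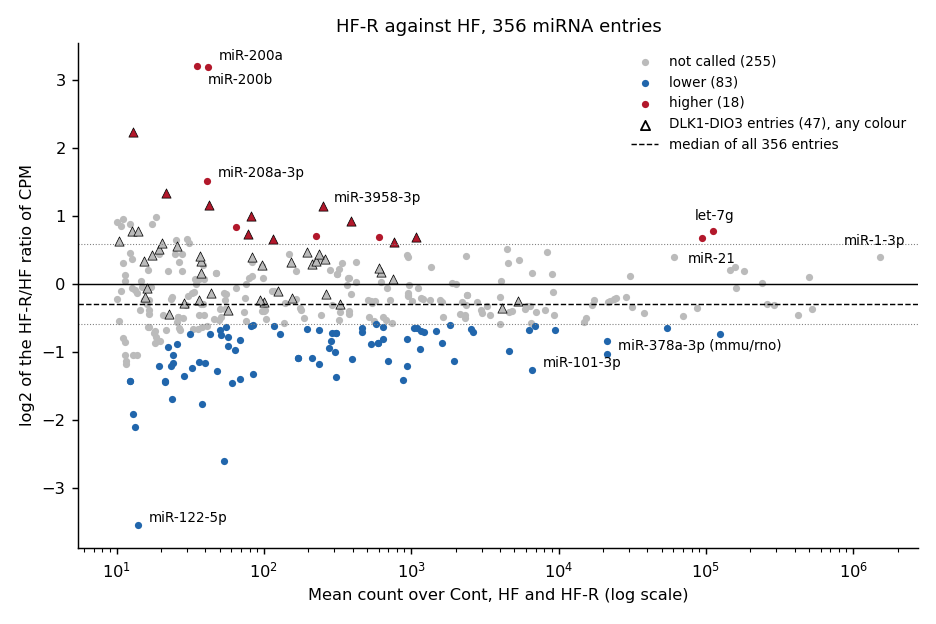
The HF-R/HF ratio of CPM (log2, vertical axis) is plotted for each of the 356 members against its mean count over the 3 libraries (log axis). Blue points are the 83 called lower and red points the 18 called higher, triangles are DLK1-DIO3 entries, the dashed line is the median of 0.817 and the dotted lines are 1.5-fold; the triangles lie mostly above the dashed line.

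CPM gains and losses balance by construction, and the sum gained by 108 members was 118608. The gain was held by few entries. miR-1-3p, at 240471 CPM in HF and 315625 in HF-R, made up 63.4% of it, let-7g 8.64% and miR-21 7.34%. The loss was spread more widely, including 19.3% in miR-99a, 18.3% in miR-30a-5p, 8.53% in the 22-base miR-378a-3p and 8.35% in miR-499a-5p.

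Among members with a mean of at least 100 counts, the partial match miR-3963 had the lowest ratio and miR-101-3p the lowest of the perfect matches. miR-101-3p, which in other species targets FOS and the methyltransferase EZH2, was at 791 CPM (Cont), 1848 (HF) and 767 (HF-R). Its HF-R/HF ratio was 0.415 (0.401 to 0.429), and the HF-R level lay beside the Cont level, with HF alone high. miR-320a showed the same shape with 239 CPM (Cont), 531 (HF) and 242 (HF-R), a ratio of 0.456 (0.428 to 0.485). miR-452-5p, from an intron of GABRE in mammals, was at 90.6, 187 and 85.0 CPM, a ratio of 0.454 (0.408 to 0.504). In these 3 miRNAs the HF library stood apart from both others.

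Other entries that fell had HF-R levels well below Cont. The muscle-metabolism miRNA miR-378a-3p, which sits in PPARGC1B, was listed in 2 lengths. The 21-base form was at 4047 CPM (Cont), 4955 (HF) and 2435 (HF-R), a ratio of 0.491 (0.482 to 0.501). miR-9-5p, best known from neurons, was at 82.8, 89.2 and 41.4 CPM, a ratio of 0.464 (0.398 to 0.540). miR-192-5p, a miRNA induced by p53 in human cells, was at 219, 259 and 134 CPM, a ratio of 0.518 (0.475 to 0.564). For all 3 the Cont and HF levels were closer to each other than either was to HF-R. miR-3529-3p was at 770 CPM (Cont), 1105 (HF) and 558 (HF-R), a ratio of 0.505 (0.484 to 0.526), but the read counted under that name is the strand of miR-7-5p, 24 bases long.

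Several of the largest falls were in scarce entries, where the counts limit the precision. miR-122-5p, the chief miRNA of liver cells, had 3 counts (Cont), 36 (HF) and 3 (HF-R), a ratio of 0.0856 (0.0169 to 0.271). miR-15b-5p had 15, 77 and 22 counts, a ratio of 0.294 (0.174 to 0.477), and miR-15a-5p 17, 50 and 19 counts, a ratio of 0.390 (0.217 to 0.674). All 3 had their highest count in HF, and miR-122-5p passed the minimum mean only through that library, as did miR-331-3p. miR-331-3p had 2, 31 and 7 counts and miR-628-5p 44, 151 and 59, with ratios of 0.232 (0.0862 to 0.537) and 0.401 (0.292 to 0.546). Of the other falls, miR-3963, miR-4532 and miR-4484 rested on partial matches. miR-3963 was the most abundant of them, with 512, 1547 and 564 counts and a ratio of 0.375 (0.340 to 0.413).

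miR-149-5p had 174 counts (Cont), 376 (HF) and 162 (HF-R), a ratio of 0.443 (0.366 to 0.534), and miR-22-5p 102, 364 and 167 counts, a ratio of 0.471 (0.390 to 0.568). Both were highest in HF. miR-1307-3p had 252, 386 and 195 counts, a ratio of 0.519 (0.435 to 0.618), and miR-744-5p 60, 106 and 39 counts, a ratio of 0.378 (0.255 to 0.550), and for these HF-R was also below Cont in CPM. The miR-652 arms were listed with the same 111, 277 and 127 counts, a ratio of 0.471 (0.379 to 0.583), so they stand for 1 measurement. Entries with 101 counts or fewer in HF that also fell were miR-216b-5p, miR-144-5p, miR-24-1-5p, miR-452-3p, miR-5126 and miR-3590-5p, and those of the miR-29, miR-30, miR-125 and let-7 families and miR-340-3p are given with their lists and arms below. The reads listed for miR-3590-5p are reverse complements of the entry. For miR-144-5p, miR-24-1-5p and miR-452-3p, another entry of the same name had more counts and was not called. The ratios of those more abundant entries were 0.652, 1.09 and 0.783.

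**Figure D2:**
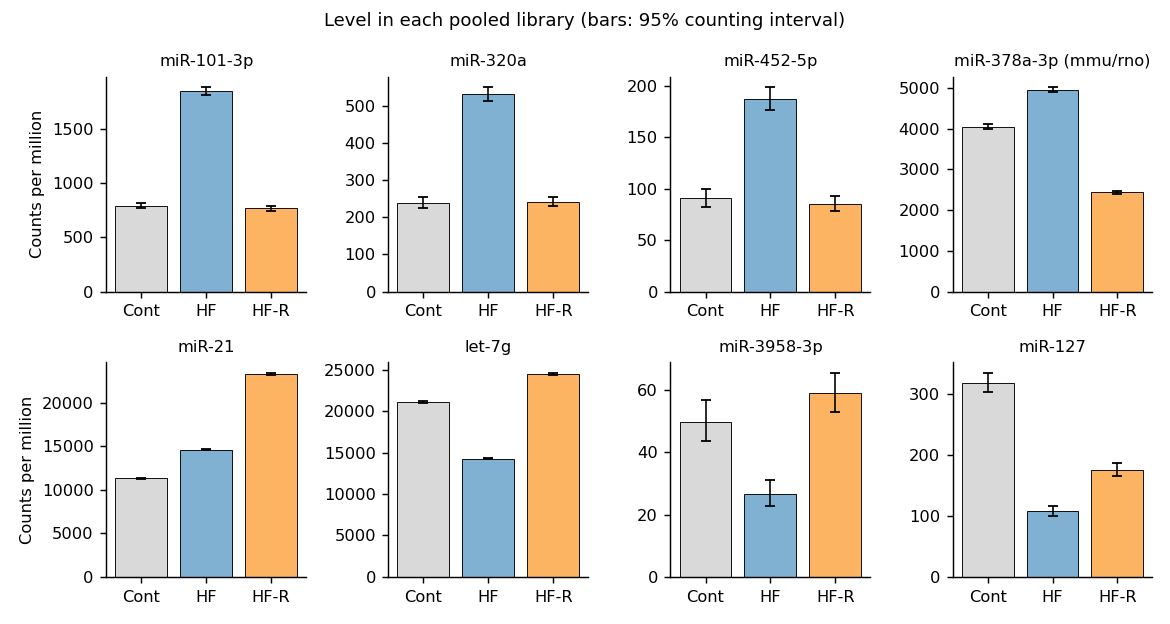
CPM in the Cont, HF and HF-R libraries (1 pool each, bars are 95% counting intervals) for 8 entries. miR-101-3p, miR-320a and miR-452-5p are high in HF alone, the 21-base miR-378a-3p is lowest and miR-21 highest in HF-R, and let-7g, miR-3958-3p and miR-127 are lowest in HF.

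The most abundant entries that rose were miR-21 and let-7g. miR-21, a miRNA of fibroblasts and of injured myocardium, was at 11297 CPM (Cont), 14602 (HF) and 23307 (HF-R), a ratio of 1.60 (1.58 to 1.61). The HF level lay between the Cont and HF-R levels, so HF-R was further from Cont than HF was. let-7g, of the let-7 family that restrains growth genes such as HMGA2 and LIN28, was at 21087, 14284 and 24526 CPM, a ratio of 1.72 (1.70 to 1.73). Here HF alone was low. let-7i-5p has the same bases 2 to 16 as let-7g and was at 28308, 25420 and 30145 CPM, a ratio of 1.19 (1.18 to 1.19) that was not called.

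The other entries that rose had lower levels. miR-214-3p, transcribed with miR-199a, had 37 counts (Cont), 57 (HF) and 99 (HF-R), a ratio of 1.78 (1.28 to 2.52). miR-208a-3p, from the gene of the alpha myosin heavy chain, had 22, 27 and 75 counts, a ratio of 2.85 (1.82 to 4.61). Cont and HF were near each other for this 22-base entry, and HF-R stood apart. An 18-base perfect entry of miR-208a-3p had 13, 17 and 19 counts, a ratio of 1.15, and was not called. The shorter to longer quotient of the ratios was 0.402 (0.183 to 0.885). The epithelial miR-200a had 27, 10 and 89 counts and miR-200b 26, 8 and 72, with ratios of 9.14 (4.75 to 19.7) and 9.25 (4.45 to 22.2). Both are partial matches, and the listed miR-200c had 39, 46 and 29 counts and no call. miR-1973, with 458, 524 and 825 counts and a ratio of 1.62, is also a partial match, and its listed position is on the mitochondrial genome.

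Close to the 1.5-fold threshold on the higher side lay miR-409-3p at 1.54, inside, and miR-376e-3p at 1.47 and miR-221 at 1.43, outside. On the lower side miR-19b-3p at 0.659 and miR-451-5p at 0.662 lay inside, and miR-29b at 0.667 and miR-30c-5p at 0.670 outside. Of these, only miR-409-3p was called under all 4 scalings.

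The DLK1-DIO3 region is an imprinted domain whose miRNAs are made from the maternal chromosome and form one of the largest miRNA clusters of mammals. Of 66 listed entries of the region, 47 were members. Of these, 10 were called higher and 0 lower by CPM, or 21.3% against the 5.06% of all members. The other scalings of the 4 raise all ratios, so these 10 stay called under them by construction. With the perfect-match totals, which multiply ratios by 0.910, those nearest 1.5, such as miR-409-3p at 1.54, lose their call. Whatever the scaling, 43 of the 47 lay above the median of all members. The median HF-R/HF ratio was 1.26 beside 0.817 over all members, and with TMM 23 of the 47 were higher. Among the 21 with a mean of at least 100 counts, 5 were higher, with a median of 1.22, and among the 33 perfect matches 8 were higher, with a median of 1.26. Without the region, the other 309 members had a median of 0.771 and 8 calls higher.

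Single entries of the region followed different courses from Cont to HF-R. miR-3958-3p was at 49.9 CPM (Cont), 26.6 (HF) and 59.1 (HF-R), a ratio of 2.22 (1.84 to 2.69). miR-493-5p was at 68.8, 48.6 and 92.5 CPM, a ratio of 1.90 (1.65 to 2.20). In both, HF was the lowest and HF-R above Cont. miR-127, which lies antisense to the imprinted gene RTL1, was at 318, 109 and 176 CPM, a ratio of 1.62 (1.47 to 1.79), and miR-409-3p at 196, 89.5 and 138 CPM, a ratio of 1.54 (1.38 to 1.72). For these HF-R lay between HF and Cont. miR-494-3p had 93, 99 and 153 counts and miR-382-3p 50, 70 and 113, with ratios of 1.59 (1.23 to 2.07) and 1.66 (1.22 to 2.27), and both rose from levels in HF near those in Cont. The remaining 4 that rose, miR-433-3p, miR-409-5p, miR-380-3p and miR-541-5p, had ratios of 2.00 to 4.73 from 56 counts or fewer in HF. The highest, miR-541-5p with 11, 5 and 23 counts, passed the minimum mean only through HF-R.

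The 2 most abundant entries of the region were below 1 by CPM. miR-379-5p was at 977, 1023 and 857 CPM, a ratio of 0.837 (0.807 to 0.869), and miR-411a-5p at 673, 846 and 662 CPM, a ratio of 0.783 (0.751 to 0.816), and neither was called. With TMM they were at 1.07 and 1.00. As these 2 hold most of the reads, the summed level of the 47 was 2982 CPM in HF and 2939 in HF-R, although the median ratio was above 1. With TMM the sum was higher in HF-R, like the median. By position on chromosome 18, 10 entries lie within 17911 bases around miR-127 and 37 within 42095 bases around miR-379-5p. These hold all members of the list but miR-370-3p, which lies between them at a ratio of 1.13 (0.998 to 1.27), and 1 neighbour outside the list, miR-3956-5p. Of the first, 3 were higher and the median log2 ratio was 0.26, and of the second 7 were higher and the median log2 ratio was 0.37, so higher entries were found in both parts. The median HF/Cont ratio of the 47 was 0.729 and the median HF-R/Cont ratio 0.916, beside 1.12 and 0.980 over all members; these ratios share libraries with HF-R/HF.

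**Figure D3:**
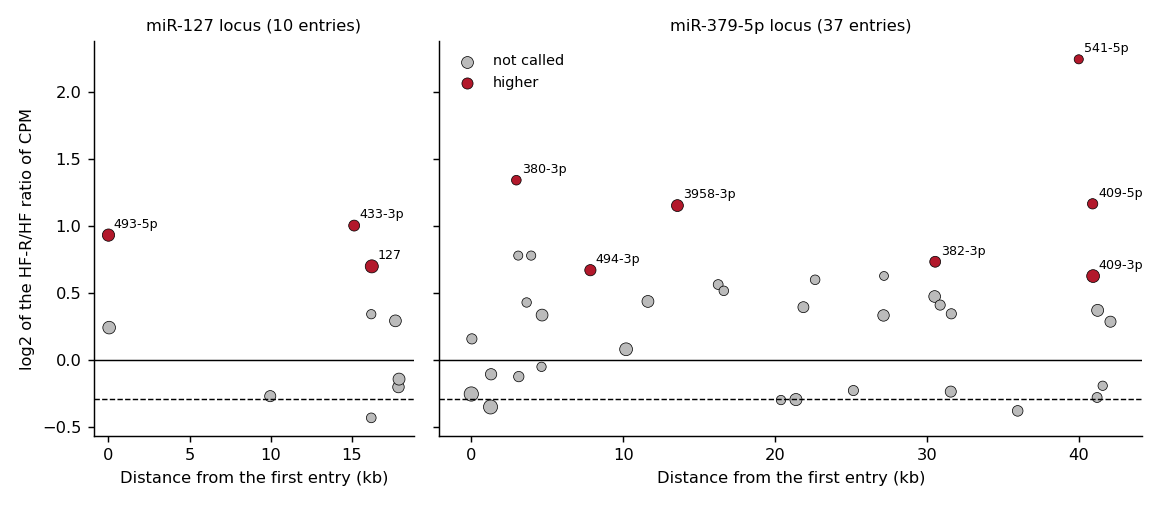
The log2 HF-R/HF ratio by CPM against the distance in kb from the first entry, for the 10 entries around miR-127 and the 37 around miR-379-5p, which leave out miR-370-3p and take in miR-3956-5p from outside the list. Entries called higher occur along both parts and no entry was called lower.

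Of 19 seeds carried by at least 3 members, 15 had a median ratio below 1 by CPM and 4 above, beside 248 of 356 members below 1. Relative to the median of all members, 11 of the 19 lay below, a count that does not depend on the scaling. The lists below were read against 2 marks, the 23.3% of all members called lower by CPM and the 9.27% lower under all 4 scalings. The seed AAAGTGC of the growth-promoting miR-17-92 group is one in which all 6 members were called lower by CPM. They are fewer than 6 measurements, since the partial matches miR-17-5p and miR-106a-5p were listed with the same 357, 938 and 500 counts and the sheep-named miR-17-5p overlaps the former. These sequences show the shared part.
miR-17-5p: cAAAGTGCttacagtgcaggta
miR-20a-5p: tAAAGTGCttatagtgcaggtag
miR-93-5p: cAAAGTGCtgttcgtgcaggtag
miR-106b-5p: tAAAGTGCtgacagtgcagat
miR-20a-5p was at 339 CPM (Cont), 643 (HF) and 395 (HF-R), a ratio of 0.614 (0.583 to 0.646). miR-93-5p was at 148, 284 and 176 CPM, a ratio of 0.621 (0.575 to 0.671), and miR-106b-5p at 81.9, 129 and 69.4 CPM, a ratio of 0.540 (0.479 to 0.609). All of them were highest in HF. Over the 15 members of the miR-17-92 cluster and its relatives, 8 were called lower by CPM with a median of 0.659, but 0 under all 4 scalings.

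The miR-15/16 family, known for targeting BCL2 and cell cycle genes, had 9 members, 4 of them lower by CPM and 0 higher, with a median of 0.655. Of these miR-15a-5p and miR-15b-5p fell, and they carry the seed of the far more abundant miR-16b.
miR-15a-5p: tAGCAGCAcataatggtttgtg
miR-15b-5p: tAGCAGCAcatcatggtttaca
miR-16b: tAGCAGCAcgtaaatattgg
miR-16b was at 5265 CPM (Cont), 8435 (HF) and 6289 (HF-R), a ratio of 0.746 (0.736 to 0.756), and was not called.

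All 6 members of the miR-29 family were below 1, with a median of 0.564, and 2 fell. The 2 that fell, miR-29a-3p and miR-29c-3p, are partial matches of 50 and 76 counts in HF.
miR-29a: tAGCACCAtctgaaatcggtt
miR-29b: tAGCACCAtttgaaatcagtgt
The abundant miR-29a was at 2131 CPM (Cont), 3395 (HF) and 2301 (HF-R), a ratio of 0.678 (0.664 to 0.693), and miR-29b at 486, 959 and 640 CPM, a ratio of 0.667 (0.640 to 0.695). Both lay just outside the threshold and had HF as the highest library.

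The miR-30 family, highly expressed in heart muscle, had 15 members that were all below 1 and all below the median of all members. Of these 5 were lower by CPM, with a list median of 0.673, and 1, a partial match of miR-30a-3p, fell under all 4 scalings. Some of the 15 overlap, so they are fewer than 15 measurements. With 1 entry per overlapping locus 11 were left, 4 of them lower by CPM. The abundant miR-30a-5p was at 114524 CPM (Cont), 94987 (HF) and 73270 (HF-R), a ratio of 0.771 (0.768 to 0.774). By CPM its course was downward from Cont to HF and again to HF-R, without a call. The TMM factor of 1.28 removes nearly all of the step from HF to HF-R. miR-30d was at 1189, 1500 and 979 CPM, a ratio of 0.653 (0.632 to 0.675), called lower by CPM.

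Further lists had medians below that of all members. The miR-378 family had 3 of 5 members lower by CPM and 1 under all 4 scalings, with a median of 0.648. Its seed CTGGACT was lower by CPM in all 3 carriers. Of these, 2 are the 22-base and 21-base miR-378a-3p entries of 1 locus, so they are fewer than 3 separate measurements. The X-linked miR-424/503/450/542 cluster had 4 of 8 lower, with a median of 0.607 and 0 under all 4 scalings, and the miR-224/452 cluster, where miR-452-5p lies, 2 of 4 and 0.646. In the miR-99/100 and miR-125 families 2 of 12 were lower, with a median of 0.726. miR-99a was at 80727 CPM (Cont), 84925 (HF) and 62055 (HF-R), a ratio of 0.731 (0.728 to 0.734), and miR-125b at 10630, 15345 and 11066 CPM, a ratio of 0.721 (0.714 to 0.728), and neither was called. A partial match of miR-125b-5p fell, with 594, 1549 and 656 counts and a ratio of 0.435 (0.397 to 0.477), and miR-125a-5p, also a partial match, was at 1.39 (1.35 to 1.43). In the miR-23/27/24 clusters 3 of 13 were lower, with a median of 0.773. miR-24-3p, which in mice targets genes of the endothelium, was at 2788, 5336 and 2979 CPM, a ratio of 0.558 (0.548 to 0.569), while miR-23a at 0.792 and miR-27a-3p at 0.805 were not called.

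**Figure D4:**
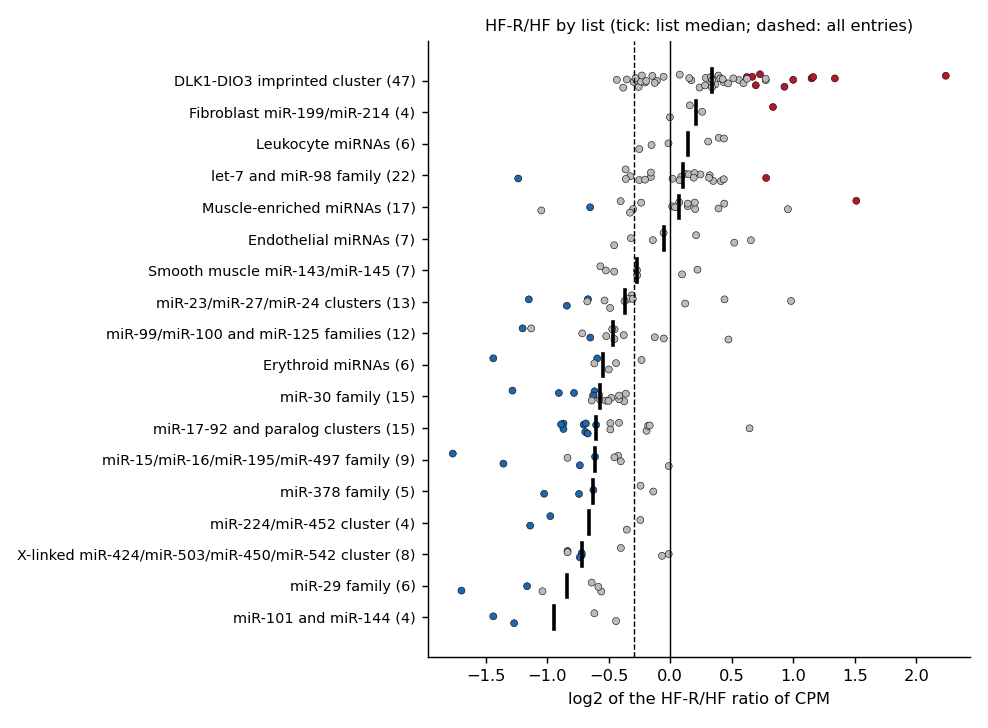
The log2 HF-R/HF ratio of each member (points) and the median (thick tick) for 18 lists of miRNAs. By CPM the DLK1-DIO3 list has its median above 0 with no member called lower, and the miR-29, miR-30, miR-101/144, miR-15/16 and X-linked miR-424 lists have no member above 0; with TMM all points shift up by 0.35, which takes the highest members of the miR-15/16 and miR-424 lists above 0.

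Few muscle-enriched miRNAs were called. Of 17 members, 1 was lower by CPM, the entry named miR-1b-5p described below. Another 1, the 22-base entry of miR-208a-3p, rose, and the median ratio was 1.05. With TMM 4 of the 17 were higher and 0 lower. Their summed level was 330414 CPM (Cont), 332984 (HF) and 396957 (HF-R), most of it miR-1-3p, whose ratio of 1.31 was not called. miR-133 was at 23358, 25049 and 28819 CPM, a ratio of 1.15 (1.14 to 1.16), and miR-499a-5p, from the gene MYH7B, at 42635, 52435 and 42532 CPM, a ratio of 0.811 (0.807 to 0.815). miR-208b-3p, from the gene of the beta myosin heavy chain, was at 916, 1279 and 1020 CPM, a ratio of 0.797 (0.771 to 0.824). miR-208b-3p shares bases 2 to 9 with miR-208a-3p. By CPM it was highest in HF, while the 22-base miR-208a-3p was highest in HF-R. The miR-208b-3p ratio was not called, and the TMM factor of 1.28 removes its excess in HF over HF-R.
miR-208b-3p: aTAAGACGaacaaaaggtttgt

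The let-7 family had 22 members, 1 higher (let-7g) and 1 lower (let-7c-3p), with a median of 1.08. With TMM 6 were higher and with DESeq2 size factors 5, and let-7c-3p stayed the 1 that was lower. Scaling to the perfect-match tables, which multiplies every ratio by 0.910, puts the medians of this list and of the muscle list below 1. let-7c-5p, the most abundant, was at 39370, 43808 and 44376 CPM, a ratio of 1.01 (1.01 to 1.02).

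In the lists for other cell types of the ventricle few entries were called. Of the 4 fibroblast miRNAs of the miR-199/214 group, miR-214-3p rose and the other 3 were not called, with miR-199a-5p at 913, 1218 and 1360 CPM and a ratio of 1.12 (1.08 to 1.15). The 7 endothelial members were entries of miR-10a, miR-10b, miR-221 and miR-222, and the study lists miR-126-3p as not detected by sequencing. None of the 7 endothelial, 7 smooth muscle or 6 leukocyte members was called by CPM, with medians of 0.963, 0.829 and 1.11. With TMM and with DESeq2 size factors 2 endothelial and 3 leukocyte members were higher. The first 2 medians lay above 1 with TMM, and the last below 1 when overlapping entries were taken once. By CPM 2 of the 6 erythroid members were lower, with a median of 0.685. Within the last, miR-486-5p was at 3236, 3258 and 2771 CPM and miR-451-5p at 139, 106 and 70.3 CPM, so both were lowest in HF-R by CPM, although the miR-486-5p ratio of 0.851 lay above the median of all members; their part in other results was not tested. Among 6 epithelial, liver and neuronal entries, 2 were lower (miR-9-5p and miR-122-5p) and 2 higher (miR-200a and miR-200b). Of the 19 entries of miRNAs the study went on to measure by qPCR, 4 were lower and 2 higher, with a median of 0.797. The study took that list from cardiac-enriched miRNAs and from its array of single sheep of this model, so it is not independent of the model's earlier results. The falls of miR-320a and of the partial matches of miR-29a-3p (0.308) and miR-125b-5p (0.435) are in it, as are the rises of miR-21 and miR-494-3p. By qPCR on single sheep the study reports these miRNAs raised in HF, with a tendency back toward control levels in HF-R. The ratio here moved that way for miR-320a, miR-29a-3p and miR-125b-5p and the other way for miR-21 and miR-494-3p. The study's array listed miR-21 and miR-494-3p as lower in HF than in controls, opposite to its qPCR. It listed miR-29a-3p and miR-125b-5p as raised.

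Both arms of 76 hairpins were members. In 74 of them the arms had different counts: both ratios were below 1 in 38 and above 1 in 11, and on opposite sides of 1 in 25. The interval of the ratio of ratios left out 1 in 24, with a difference of at least 1.5-fold in 16. By CPM only miR-361 had opposite calls on its arms, and with TMM its 5p arm was not called.
miR-361-5p: tTATCAGAatctccaggggtac
miR-361-3p: tCCCCCAGgtgtgattctgattt
The 5p arm had 983 counts in HF and 614 in HF-R, a ratio of 0.642, and the 3p arm 184 and 292, a ratio of 1.63. The 5p to 3p quotient of these ratios was 0.394 (0.319 to 0.486), a difference that no scaling can alter, since both arms take the same factor. Other hairpins differed with 1 arm called. miR-22-5p was at 0.471 and miR-22-3p at 0.957, and miR-340-3p at 0.502 and miR-340-5p at 0.869.

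The ratio went with the length of the read within single miRNAs. In 17 pairs of perfect entries the sequences differed only in how far they ran at the 3′ end, and the shorter form had the lower HF-R/HF ratio in 14 and the higher in 3. The interval of the quotient left out 1 in 8 and 2 of these. The pair with the most reads was miR-1-3p and the entry named miR-1b-5p, whose listed read is miR-1-3p without its last base.
miR-1-3p, listed read: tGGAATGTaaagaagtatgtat
miR-1b-5p, listed read: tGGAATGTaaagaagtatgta
The longer form was at 256202 CPM (Cont), 240471 (HF) and 315625 (HF-R), and the shorter at 6789, 13195 and 8400 CPM. Their ratios were 1.31 and 0.637, on opposite sides of 1, and the shorter to longer quotient was 0.485 (0.480 to 0.491). The shorter form was highest in HF and the longer lowest there. The 22-base and 21-base forms of miR-378a-3p had ratios of 0.598 and 0.491.
miR-378a-3p, longer: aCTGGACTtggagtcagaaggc
miR-378a-3p, shorter: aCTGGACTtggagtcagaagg
The pairs of miR-143-5p (1.17 and 0.696), miR-450a-5p (0.955 and 0.560) and let-7a-3p (1.25 and 0.778) lay in the same order, longer before shorter. In miR-7-5p and miR-146b-5p the order was the reverse.

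**Figure D5:**
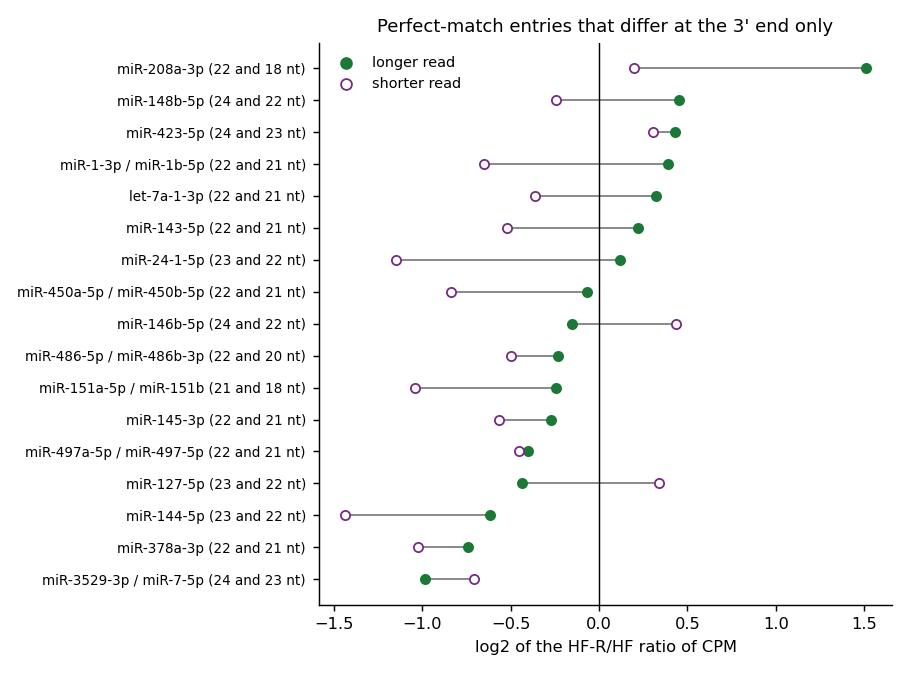
HF-R/HF ratios (log axis) of the longer form (filled) and the shorter form (open) in 17 pairs that differ only at the 3′ end. The open symbol lies to the left of the filled one, at the lower ratio, in 14 pairs.

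How an entry was named and matched moved with its ratio. Entries named for sheep (oar-) had a median ratio of 1.06 over 94 members, with 14 higher and 6 lower, and those named for human, mouse or rat a median of 0.753 over 262, with 4 higher and 77 lower. Most DLK1-DIO3 members carry sheep names, and without the region the sheep-named entries had a median of 0.851 over 50 and the others 0.751 over 259. Of 178 perfect entries found in the single-library perfect-match lists, 172 had the merged counts in all 3 libraries. In HF, 177 had 1 read sequence listed. A separate set, not limited to entries with equal counts, was the 172 perfect entries whose names also had enough partial-match counts. For these the partial-match counts gave a median of 0.911 where the perfect counts gave 0.730. Of the 56 of them called lower, 44 also had a partial-match ratio below 1 and 9 were called lower there, and all 3 called higher were above 1. A further 12 members form 6 groups with the same 3 counts, 8 of them called lower, and in 6 perfect entries the listed reads are all reverse complements of the entry. Which reads were summed under a name thus moved with the ratio, and its part in the results was not tested. The ratio was little related to GC content (Spearman rho -0.14), length (0.04) or level (-0.01) across the 356 members, which share the 2 libraries.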

How the data were processed

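Sheep left ventricular RNA was pooled by group and sequenced as 1 small RNA library per group. The authors removed adapters and short reads, matched reads to known miRNAs of sheep, human, mouse and rat and to the sheep genome (Bowtie is named in the submitters' processing notes), and deposited raw read counts per miRNA in merged tables and per-library tables, apart for perfect and partial matches. Software versions are not given in the sources used here. The deposited counts were read as they stand, and repeat listings at 1 place with the same counts were taken once (15 entries). Members needed a mean of at least 10 counts. Counts were divided by library totals to CPM. Ratios carry exact (Clopper-Pearson) binomial intervals at 95%, and calls needed a ratio of at least 1.5 or at most 0.667 with an interval without 1. With 1 library a group, no test across libraries could be made; edgeR (4.0.16, TMM factors) and DESeq2 (1.42.0, size factors) gave scalings only, in R 4.3.3. Other steps used Python 3.11.15, pandas 2.3.3, NumPy 2.4.6 and SciPy 1.17.1, and were tested on simulated counts. The number of value columns without a sample was 0. Sequences come from the deposited tables, and neither genome nor sequence tables were used here. Named entries were the 12 lowest and 12 highest ratios among those with a mean of at least 100, the 10 most abundant, the qPCR miRNAs, up to 4 per list over 33 lists and hairpins with opposite calls; scarce entries outside that rule were chosen after their values were seen. Members and lists were chosen with earlier results of these data known. Alternatives were other scalings, filters, thresholds and match classes.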

Additional observations from a re-analysis of the deposited data

How the results depend on the processing

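By CPM 83 members were lower and 18 higher. The counts were 33 and 58 with TMM, with a median ratio of 1.04 in place of 0.817, 41 and 44 with DESeq2 size factors, and 53 lower without miR-1. A mean of at least 100 counts left 48 lower and 9 higher, a threshold of 1.2 gave 139 and 37, and one of 2 gave 34 and 7. Entries named for human, mouse or rat alone gave 4 higher. Entries named for sheep alone gave 6 lower and a median of 1.06. The perfect-match counts of the single-library tables gave 3 higher and their partial-match counts 39 lower. No paired analysis was possible because each group is 1 library, and no replicate could be left out. Leaving out the perfect entries with other counts or reversed reads in the single-library tables, an alternative chosen after seeing the data, gave 77 lower and 18 higher. The cause of these shifts was not tested. Of the 127 entries named by rule, 17 lost a call with TMM and 11 gained one. The other 99 kept their status, which for many was not called under either scaling. Pools of different ewes are not separated from recovery by any setting.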
